A study of Mus musculus with 20 samples.

Results

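The genes described here are 32 enzymes, sensors and transporters of cholesterol and fatty acid synthesis, measured by RNA sequencing in the mouse adBNST (bed nucleus of the stria terminalis, anterodorsal division). They were chosen by gene symbol. All 32 were present among the 12988 genes of the deposited count table, and all 32 passed the filter on low counts. They fall into 4 roles: 7 enzymes of the mevalonate steps, 11 enzymes from squalene to cholesterol, 6 genes of sterol sensing and transport, and 8 enzymes of fatty acid synthesis and desaturation.

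The adBNST is a small forebrain nucleus of mostly inhibitory neurons that takes part in responses to stress. Mice aged 7 to 9 weeks at the start were either kept as controls or put through chronic variable mild stress (CVMS), a schedule of changing minor stressors such as wet or tilted cages, restraint and cold swims over 6 weeks. Tissue was collected under ketamine 1 hour after the last stressor, which was wet bedding. The 4 groups were female controls, stressed females, male controls and stressed males, each with 15 mice and 5 libraries. A library was made from the pooled tissue of 3 mice, so the spread between libraries is that between pools. The labels give no strain.

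Mammalian cells build cholesterol from acetyl-CoA. The mevalonate steps make isoprenoid units and farnesyl diphosphate, squalene is formed from these, and a series of oxidations and reductions turns its first ring product, lanosterol, into cholesterol. SREBP transcription factors, made from Srebf1 and Srebf2, drive these genes when the sensor Scap carries them out of the endoplasmic reticulum, and the Insig proteins hold Scap back when sterol is plentiful. In the brain cholesterol is made locally, much of it by astrocytes and by oligodendrocytes that build myelin, and long fatty acids and their desaturated forms enter the same membranes.

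Library totals ran from 2.71 M to 33.6 M (mega) counts with a median of 15.6 M. The 32 members together took between 0.476% and 0.591% of the counts of a library. The lowest count of any member in any library was 22. The 12 bed nucleus marker genes, among them the GABA synthesis genes Gad1 and Gad2, summed to between 2510 and 2990 CPM (counts scaled by library size, with TMM factors) in every library. The 14 striatal neuron markers summed to 2690 to 3370 CPM in male controls and to 2810 to 5840 CPM over the other 3 groups. RNA came from whole tissue, so fewer cells of a type and less RNA per cell cannot be told apart in any result below.

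Levels between genes were compared as CPM per kb of exon. The length takes in every annotated exon of a gene, from any of its transcripts, so a gene with many transcripts can rank lower. Scd2, the brain's main stearoyl-CoA desaturase, stood at 463.8 CPM per kb, far above the second, Fads2, which desaturates polyunsaturated fatty acids, at 64.4. Scd1 (57.8), Fads1 (54.2) and Hmgcs1 (42.8), the enzyme that makes HMG-CoA, followed. The least abundant members were Hsd17b7 (3.63), Tm7sf2 (2.68), both sterol reductases, and Idi1 (2.46), which isomerizes isopentenyl diphosphate. Fatty acid genes took 6 of the 7 highest ranks, and the other 2 of the 8, Elovl6 and the acetyl-CoA carboxylase Acaca, were at 13.2 and 4.33. In the middle of the order neighbours differed by less than their spread over libraries, as for Insig1 (15.6), Cyp51 (15.05) and Scap (14.6).

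**Figure D1:**
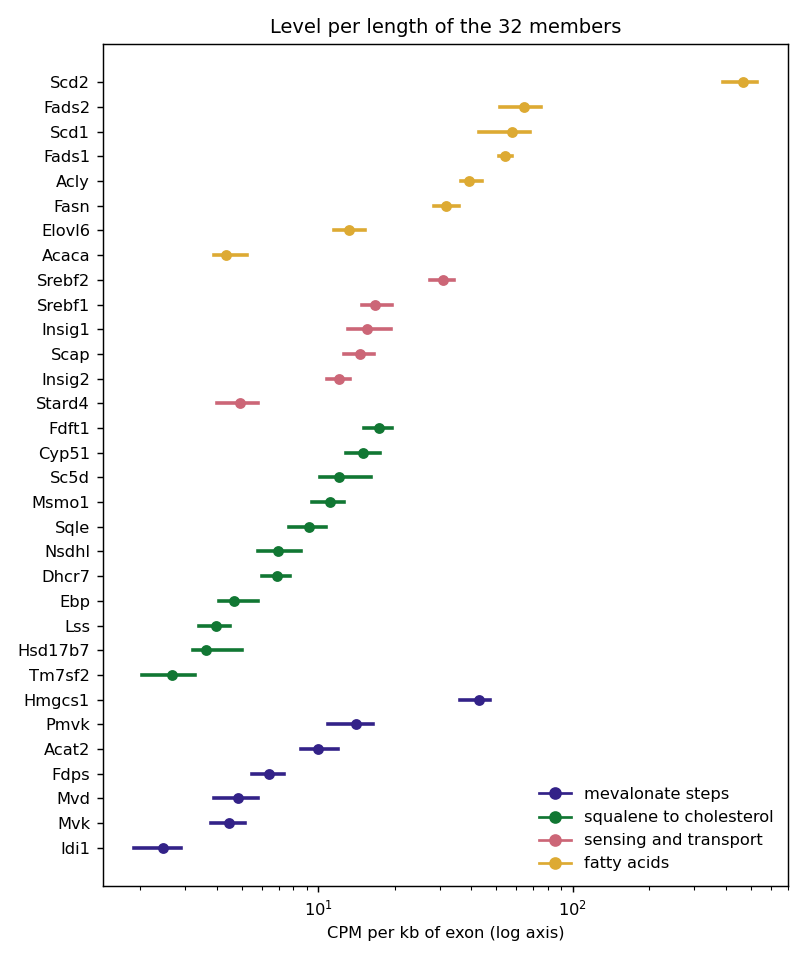
Level of each of the 32 members in CPM per kb of exon on a log axis, grouped and coloured by role. Points are means over 20 libraries and lines run from the lowest to the highest library. Scd2 at 463.8 stands apart, and the lines of most neighbours in a role overlap.

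Some counts may hold reads of other genes. In the GENCODE M21 annotation, exons of Fdps overlapped those of Gm43738 over 26.7% of their length, those of Fdft1 overlapped Ctsb on the other strand over 18.3%, and those of Tm7sf2 overlapped Vps51 over 12.1%. Of the windows of 50 bases in the transcripts, 39.1% in Acat2 were also found in Acat3, 30.4% in Acaca, 26.2% in Fdps and 17.7% in Idi1 occurred in other genes, while Scd1 and Scd2 had 4.56% and 3.97%. The values of Acat2, Fdps, Idi1, Acaca, Fdft1 and Tm7sf2 are uncertain to that degree, because how reads with several matches were counted is not given in the sources used here.

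In the comparison of stressed with control mice, 0 of the 32 members were called in either sex by edgeR's quasi-likelihood test at a Benjamini-Hochberg adjusted p under 0.05. The background was as low: 0% of all genes were called in females and 0.0077% in males. At an unadjusted p under 0.05, 1 member passed in females and 1 in males, shares of 3.12% against 7.51% of all genes in females and 15.5% in males. The median log2 fold change of the members was 0.0035 in females and -0.050 in males, beside -0.0011 and -0.0067 over all genes.

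Among the enzymes from squalene to cholesterol, Lss, which closes squalene oxide into lanosterol, had the smallest p in females. Its levels were 40.9, 46.2, 43.6, 39.2 and 36.7 CPM in female controls and 44.1, 48.8, 43.0, 47.5 and 43.9 CPM in stressed females. The ranges of the groups overlapped, with the control values reaching lower. The log2 fold change of Lss was 0.13 (SE 0.062, n = 5 libraries per group; edgeR adjusted p = 0.665). Nsdhl, a sterol dehydrogenase encoded on the X chromosome, was at -0.18 (SE 0.092; edgeR adjusted p = 0.678), and Elovl6, which lengthens palmitate, at -0.12 (SE 0.062; edgeR adjusted p = 0.675). Neither difference passed the test. With the myelin score of each library (the mean log2 CPM of 14 myelin genes) held as a covariate, Nsdhl was at -0.096 and Elovl6 at -0.053, and without female control 3 Elovl6 was at -0.059.

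In males the smallest p belonged to Srebf2, the SREBP gene tied most closely to cholesterol synthesis. Its levels were 203, 220.0, 198, 207 and 212 CPM in male controls and 246, 238, 231, 236 and 198 CPM in stressed males. Stressed male 5 lay just under the lowest control, and the other 4 stressed libraries lay above all male controls. The log2 fold change of Srebf2 was 0.14 (SE 0.057; edgeR adjusted p = 0.231), which did not pass. Sqle, the squalene epoxidase, was at -0.15 (SE 0.076; edgeR adjusted p = 0.364) and Acly, which supplies cytosolic acetyl-CoA, at 0.088 (SE 0.047; edgeR adjusted p = 0.388).

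Markers of other cell types and of the bed nucleus were compared between the same groups of males. All 14 striatal markers were higher in stressed than in control males, with a median log2 fold change of 0.56, and they summed to 3820 to 5840 CPM against 2690 to 3370 CPM, so the groups did not overlap. All 14 had an unadjusted p under 0.05, beside 15.5% of all genes, and 0 were called. With the striatal score (their mean log2 CPM) held as a covariate, the log2 fold change was 0.048 for Srebf2 and 0.038 for Acly, and that of Sqle turned in sign to 0.044. This score ran from -0.53 to -0.18 in male controls and from -0.032 to 0.58 in stressed males. Stress and striatal content therefore cannot be told apart in this fit. Of the endothelial markers 9 of 10 were higher, with a median of 0.15 and sums of 276 to 309 CPM against 248 to 282 CPM. Of the microglial markers 9 of 11 were higher, with a median of 0.083 and sums of 465 to 512 CPM against 430 to 538 CPM. Of the 12 bed nucleus markers 5 were higher and 7 lower, with a median of -0.16 and sums of 2510 to 2990 CPM against 2710 to 2880 CPM. An unadjusted p under 0.05 was reached by 50% of them (1 higher, 5 lower), beside 15.5% of all genes. 0 genes of the endothelial, microglial and bed nucleus lists were called and none was at 0 counts. What part any of these markers had in the members' values was not tested.

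The other pathway genes followed in every comparison were as close to no difference. In females the log2 fold change with stress was -0.028 for Hmgcs1, 0.047 for Sqle, 0.025 for Cyp51, -0.077 for Insig1, 0.034 for Srebf2, 0.047 for Fasn and -0.11 for Scd2. In males it was -0.048 for Hmgcs1, -0.099 for Cyp51, -0.12 for Insig1, 0.069 for Fasn and 0.014 for Scd2. Cyp51 demethylates lanosterol, and Fasn is the fatty acid synthase. None of these passed the test.

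By role, stress in females left 2 of 7 mevalonate, 8 of 11 squalene-to-cholesterol, 4 of 6 sensing and 3 of 8 fatty acid genes with a positive value. In males the same counts were 1 of 7, 3 of 11, 4 of 6 and 5 of 8. The 14 myelin genes, such as Mbp and Mog, had a median log2 fold change with stress of -0.22 in females, with 0 of 14 positive. Of these 14, 50% had an unadjusted p under 0.05 in females, beside 7.51% of all genes, and 0 were called. In males the median was -0.017, with 6 of 14 positive and 0% under that p. In females 10 of 11 microglial markers (median -0.13) and 7 of 10 endothelial markers (-0.075) were lower, with 18.2% and 30% under that p. Of the 14 striatal markers 9 were higher (0.051), and of the 12 bed nucleus markers 6 were (-0.020). No gene of these 4 lists was called, and their part in the members' values was not tested. With the myelin score held, 0 members were called with stress in females, and the signs of Hmgcs1 (0.064), Insig1 (0.058) and Scd2 (0.035) turned positive. The share of all genes called in that fit was not recorded, so this 0 cannot be set against a background.

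The difference between the stress effects of the sexes was tested as an interaction. 0 of the 32 members were called, beside 0% of all genes, and 0 had an unadjusted p under 0.05, beside 10.4%. The smallest p belonged to Acly, with a male minus female difference in log2 fold change of 0.13 (SE 0.067; edgeR adjusted p = 0.514). Tm7sf2 was at -0.27 (SE 0.15; edgeR adjusted p = 0.529) and Sqle at -0.19 (SE 0.11; edgeR adjusted p = 0.542). With the striatal score held, Sqle was at -0.011 and Acly at 0.078, and without stressed female 2 Sqle was at -0.13. For the others followed throughout, it was -0.12 for Cyp51, -0.038 for Insig1, 0.10 for Srebf2, 0.12 for Scd2, 0.021 for Fasn and -0.019 for Hmgcs1.

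Averaged over the sexes, stress again gave 0 calls among the 32 members, beside 0% of all genes. At an unadjusted p under 0.05, 3 members or 9.38% passed, beside 12.7% of all genes. These were Nsdhl at -0.17 (SE 0.064; edgeR adjusted p = 0.299), Lss at 0.099 (SE 0.043; edgeR adjusted p = 0.349) and Srebf2 at 0.087 (SE 0.040; edgeR adjusted p = 0.375). With the striatal score held, Nsdhl was at -0.070 and Srebf2 at 0.040. The average was -0.038 for Hmgcs1, -0.050 for Sqle, -0.037 for Cyp51, -0.096 for Insig1, 0.058 for Fasn and -0.047 for Scd2.

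Males were compared with females to ask whether the pathway differed between the sexes without stress. Again 0 of the 32 members were called at an adjusted p under 0.05, beside 0.747% of all genes. At an unadjusted p under 0.05, 8 members or 25% passed, all higher in male controls, beside 15.3% of all genes in either direction. All 8 were enzymes on the way to cholesterol: Acat2, Mvd and Idi1 of the mevalonate steps, and Fdft1, Sqle, Cyp51, Msmo1 and Sc5d from squalene onward. These 8 had log2 differences, male minus female, from 0.15 to 0.26.

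Sqle, which adds oxygen to squalene at a slow step of the pathway, had the smallest p. Its levels were 43.8, 49.2, 54.8, 45.9 and 45.1 CPM in female controls and 50.7, 58.1, 55.4, 59.3 and 58.3 CPM in male controls. The ranges overlapped, with 4 of 5 male control libraries above every female control. The log2 difference of Sqle was 0.24 (SE 0.078, n = 5 libraries per group; edgeR adjusted p = 0.145).

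Cyp51 stood at 57.6, 56.8, 71.2, 66.6 and 61.0 CPM in female controls and at 64.1, 67.9, 75.2, 76.6 and 77.6 CPM in male controls. These ranges overlapped too, with 3 of 5 male controls above every female control. The difference was 0.22 (SE 0.075; edgeR adjusted p = 0.162).

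Mvd, which decarboxylates mevalonate diphosphate, was at 9.01, 8.79, 7.23, 8.28 and 7.49 CPM in female controls and at 10.4, 8.88, 10.6, 9.41 and 10.1 CPM in male controls. All but 1 male control lay above all female controls. The difference was 0.26 (SE 0.091; edgeR adjusted p = 0.163). Idi1 differed by the same amount, 0.26, with a larger error (SE 0.11; edgeR adjusted p = 0.235).

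**Figure D2:**
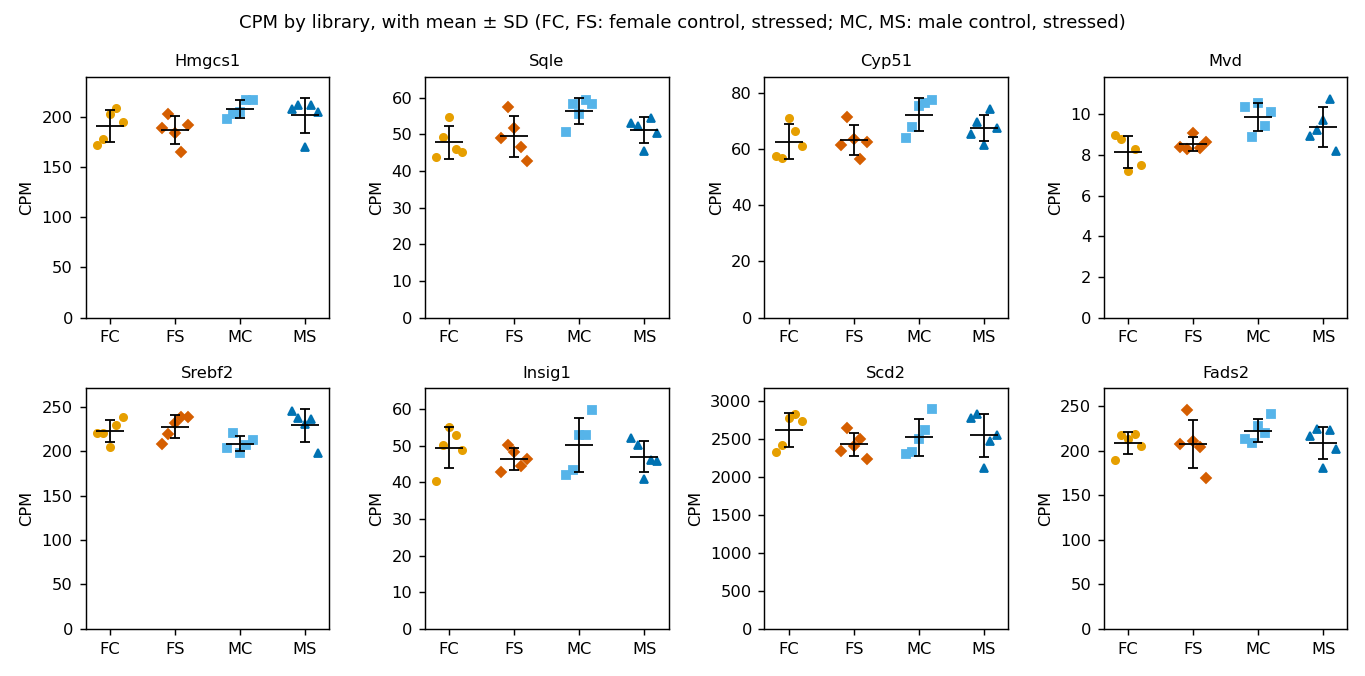
CPM of 8 members in each library, with group mean and SD (n = 5 libraries per group); axes start at 0. Male controls are highest on average for Hmgcs1, Sqle, Cyp51, Mvd, Insig1 and Fads2, and the groups overlap in every panel.

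The direction differed by role. In male against female controls, 6 of 7 mevalonate genes and 7 of 11 squalene-to-cholesterol genes were positive, with medians of 0.13 and 0.15. The sensing genes were split, 3 of 6, and 3 of 8 fatty acid genes were positive with a median of -0.025. Srebf1 and Srebf2 were at -0.12 (SE 0.063; edgeR adjusted p = 0.394) and -0.095 (SE 0.057; edgeR adjusted p = 0.455), and neither passed. Hmgcs1 was at 0.13, Insig1 at 0.044, Fasn at -0.018 and Scd2 at -0.051.

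Marker genes of other cell types moved with this comparison. All 14 striatal markers were lower in male controls, with a median log2 difference of -0.59 and 0 of 14 called, and all 14 myelin genes were lower, with a median of -0.17 and 0 called. Endothelial markers were lower in 9 of 10 cases, with a median of -0.18, sums of 248 to 282 CPM in male and 276 to 308 CPM in female controls, and 1 called, the tight junction gene Cldn5 at -0.44 (SE 0.084; edgeR adjusted p = 0.0122). Microglial markers were lower in 10 of 11 cases, with a median of -0.21, sums of 430 to 538 CPM and 486 to 556 CPM, and 0 called. Of the 12 bed nucleus markers 7 were higher, with a median of 0.028 and 1 called, the neuropeptide gene Tac2 at 0.84 (SE 0.18; edgeR adjusted p = 0.0306). What part any of these markers had in the members' values was not tested.

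With the myelin score held as a covariate, 6 members were called, all higher in male controls: Hmgcs1, Fdft1, Sqle, Cyp51, Msmo1 and Sc5d, beside 1.17% of all genes called higher in males. In that fit Cyp51 was at 0.28 (SE 0.063; edgeR adjusted p = 0.024) and Sqle at 0.29 (SE 0.068; edgeR adjusted p = 0.032).

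These 6 calls rested on single libraries. Their number fell to 0 without any one of female controls 1 and 5 and male controls 3 and 4, to 1 without male control 2 or stressed male 3, and to 2 without female control 2, female control 4 or male control 1. The limma-voom test called 1. The share of all genes called was not recorded for limma-voom or for the fits without a library, so these numbers cannot be set against a background. With the astrocyte score (11 genes, such as Aqp4 and Slc1a3) held instead, 6 members were called higher in males, beside 2.53% of all genes: Fdft1, Sqle, Cyp51, Msmo1 and Sc5d again, and Fads2. With the striatal score held, 0 were called, beside 0.37%, and the difference of Sqle was 0.074 (SE 0.064) and that of Cyp51 0.11 (SE 0.076).

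In stressed mice the same sex comparison called 0 of 32 members, beside 0.077% of all genes. At an unadjusted p under 0.05, 2 members or 6.25% passed, beside 7.06% of all genes: Idi1 at 0.22 (SE 0.099; edgeR adjusted p = 0.678) and Elovl6 at 0.13 (SE 0.061; edgeR adjusted p = 0.678). Msmo1, a sterol methyl oxidase, was at 0.13 (SE 0.069; edgeR adjusted p = 0.719). The values were 0.11 for Hmgcs1, 0.042 for Sqle, 0.095 for Cyp51, 0.0058 for Insig1, 0.0099 for Srebf2, 0.0034 for Fasn and 0.071 for Scd2. All 8 fatty acid genes and 25 of all 32 members had a positive sign, with a median of 0.035 beside -0.00035 over all genes. Whether the sex difference itself differed between control and stressed mice is the interaction above, in which no member passed.

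**Figure D3:**
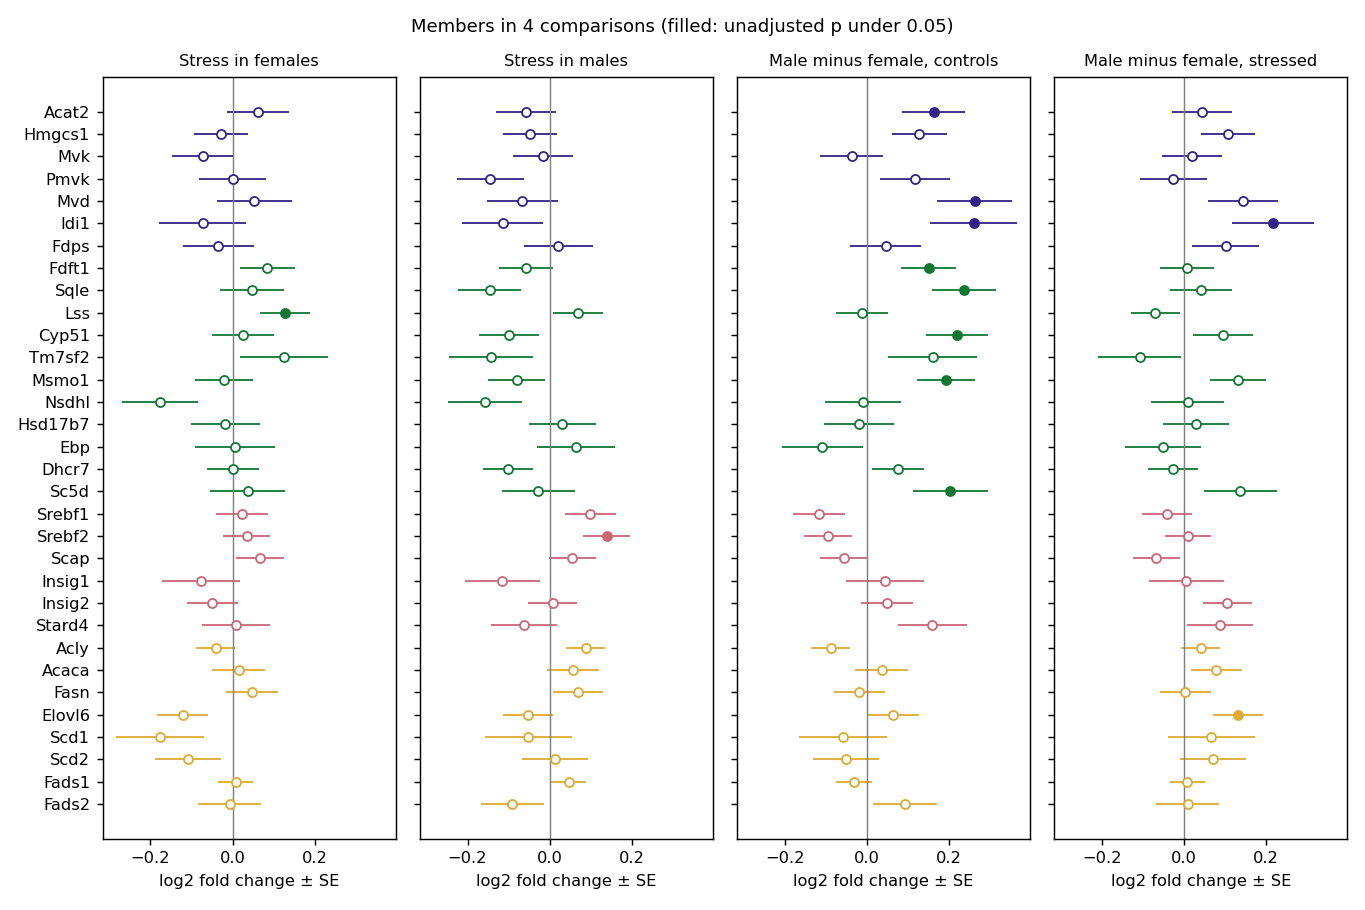
Log2 fold change of each member with its SE in 4 comparisons, coloured by role as in the plot of levels per length. Filled points have an unadjusted p under 0.05: 1 in each stress comparison, 8 between control males and females, and 2 between stressed males and females. No point has an adjusted p under 0.05.

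The members were then scored together, as the mean log2 CPM (prior count 2) of the 32 genes, centred on 0 over the 20 libraries. Female controls 1 to 5 had scores of -0.092, -0.051, 0.052, 0.046 and -0.047, and stressed females -0.053, 0.047, -0.016, -0.056 and -0.073. Male controls had -0.0037, -0.00023, 0.031, 0.048 and 0.11, and stressed males 0.054, 0.056, -0.080, 0.034 and -0.0056. Every group held libraries on both sides of 0. The female means were -0.018 ± 0.064 for controls and -0.030 ± 0.048 for stress, and the male means 0.037 ± 0.046 and 0.012 ± 0.057 (SD, n = 5 libraries each). Differences between group means of this score were of the size of the spread within groups. By role, male minus female controls was 0.13 for the mevalonate score, beside a pooled within-group SD of 0.060. That score ran from -0.085 to 0.021 in female and from 0.026 to 0.16 in male controls. The difference was 0.090 for squalene to cholesterol (SD 0.069), -0.012 for sensing and transport (0.055) and -0.0079 for fatty acids (0.078).

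The score went with the myelin score. Over 20 libraries Pearson's r was 0.634 and Spearman's rho 0.644. Over deviations from the group means r was 0.858 and rho 0.844, and r was 0.796 without the 2 libraries farthest from the median, stressed male 3 and male control 5. Stressed male 3 had the lowest myelin score, -0.453, and the second lowest member score. These are descriptions, since member and myelin values come from the same libraries and share their scaling.

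**Figure D4:**
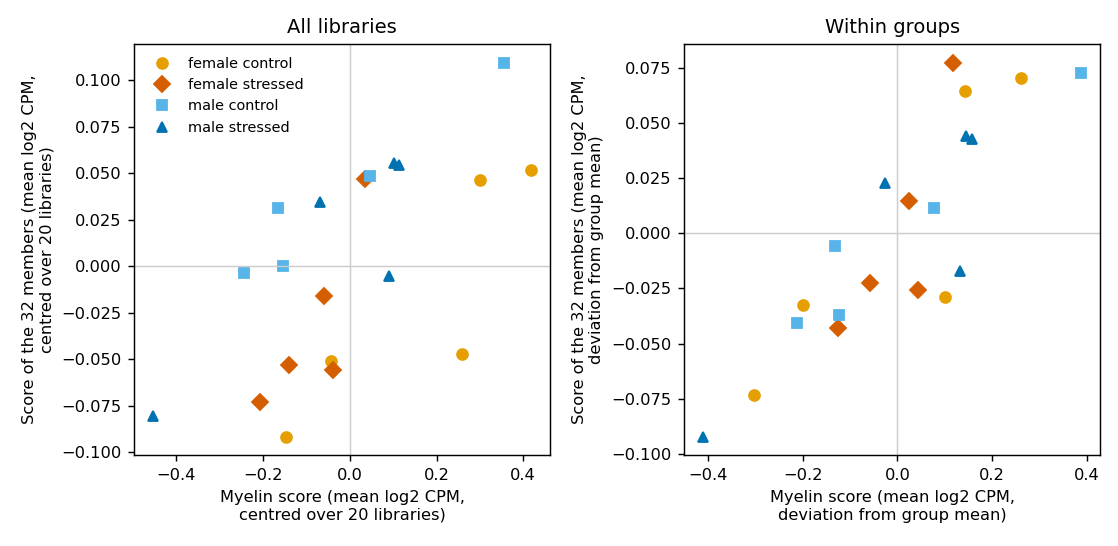
Score of the 32 members against the myelin score, each point 1 library, both in mean log2 CPM. The left panel shows values centred over all libraries (r = 0.634) and the right panel deviations from group means (r = 0.858), where stressed male 3 lies lowest on both axes.

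The relation was not particular to myelin genes. Within groups the member score had an r of 0.853 with the astrocyte score, 0.78 with the thalamic score, 0.735 with the neuron score and -0.61 with the striatal score. It had an r of -0.167 with the log10 of the library total. The myelin and astrocyte scores themselves correlated at 0.767, and the astrocyte and thalamic scores at 0.876. By role, the r with myelin within groups was 0.826 for the fatty acid genes, 0.765 for squalene to cholesterol, 0.689 for sensing and transport, and 0.391 for the mevalonate steps.

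To see which members carried this relation, each gene was fitted on the myelin score beside the 4 group means. The slope is the change in a gene's log2 level per log2 unit of the score, so a gene that moves in parallel with myelin genes has a slope of 1. With edgeR's adjusted p under 0.05, 11 of 32 members rose with the myelin score and 0 fell, beside 7.09% of all genes called positive and 5.17% called negative. The median slope of the members was 0.21, beside -0.015 over all genes.

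Among fatty acid genes 4 of 8 rose with the myelin score: Scd1, Scd2, Elovl6 and Fads2. In females Scd2 stood at 2329, 2424, 2781, 2833 and 2740.2 CPM in controls and at 2346, 2652, 2412, 2505 and 2242 CPM after stress. In males it stood at 2301, 2328, 2499, 2625 and 2896 CPM in controls and at 2781, 2834, 2125, 2478 and 2555 CPM after stress. The 4 groups overlapped, and stressed male 3 was lowest of all libraries. Its slope was 0.59 (SE 0.076; edgeR adjusted p = 2.21e-05). Scd1, its close relative, had a slope of 0.75 (SE 0.12; edgeR adjusted p = 0.000191).

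Among the sensing and transport genes 2 of 6 rose, Insig1 and the sterol carrier Stard4. Insig1, itself an SREBP target, was at 40.4, 50.2, 55.2, 53.1 and 48.8 CPM in control females and at 42.8, 50.1, 48.3, 44.4 and 46.4 CPM after stress. In males the controls had 42.0, 43.3, 53.1, 52.9 and 59.8 CPM and the stressed mice 52.0, 50.3, 41.1, 46.2 and 45.7 CPM. The spread inside a group was wider than the distance between groups. The slope of Insig1 was 0.60 (SE 0.11; edgeR adjusted p = 0.00135). Srebf2 (-0.0059, SE 0.10), Insig2 (-0.031, SE 0.11), Scap (-0.084, SE 0.10) and Srebf1 (0.13, SE 0.11) did not pass.

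From squalene to cholesterol 4 of 11 rose: Fdft1 (0.38, SE 0.090), Sc5d (0.51, SE 0.12), Cyp51 (0.38, SE 0.11) and Sqle (0.36, SE 0.12), with edgeR adjusted p between 0.00898 and 0.0492. Fdft1 makes squalene and Sc5d works near the end of the pathway. Of the mevalonate genes 1 of 7 rose, Hmgcs1 at 0.38 (SE 0.092; edgeR adjusted p = 0.00998). Fasn, which makes palmitate, was at -0.018 (SE 0.11) and Acly at 0.028 (SE 0.085), so the synthase and its acetyl-CoA supply had slopes near 0. Acaca, the carboxylase between them, was at 0.27 (SE 0.10; edgeR adjusted p = 0.0807) and did not pass. The lowest slopes were those of Tm7sf2 (-0.28, SE 0.17; edgeR adjusted p = 0.3), Mvd (-0.25, SE 0.15; edgeR adjusted p = 0.266) and Scap (edgeR adjusted p = 0.634), none of which passed.

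**Figure D5:**
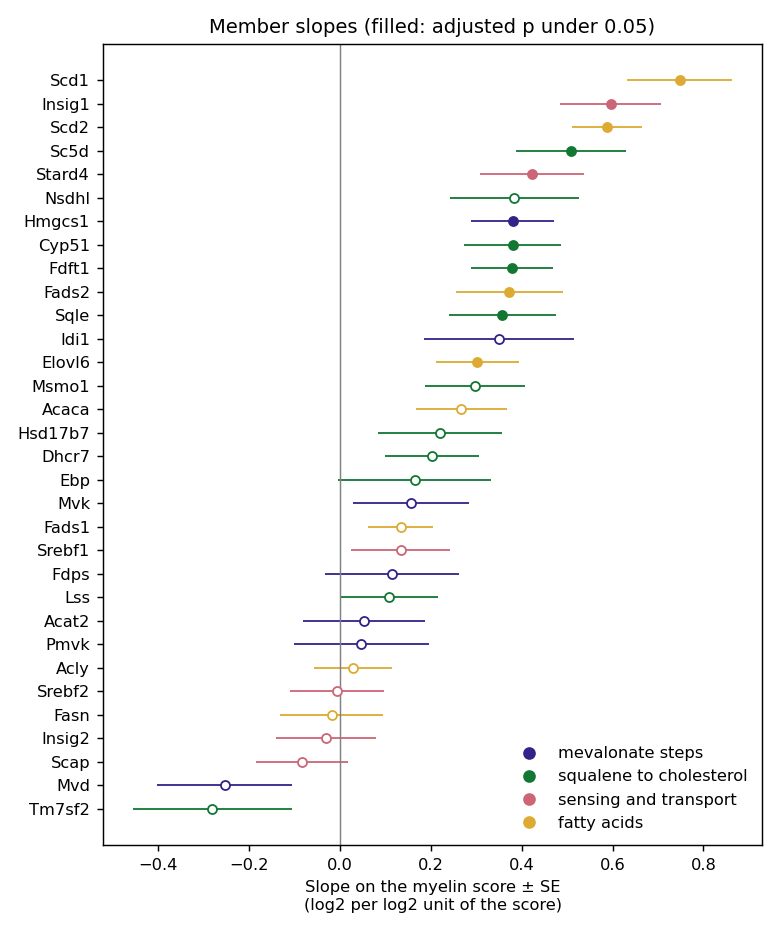
Slope of each member on the myelin score with its SE, sorted and coloured by role. Filled points have an adjusted p under 0.05: 11 members, from Scd1 at 0.75 down to Elovl6 at 0.30.

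Scd1, Scd2 and Insig1 were called in all 20 fits that left out 1 library. Hmgcs1, Fdft1, Sc5d and Stard4 were called in 19 of these, Cyp51 in 16, Elovl6 in 15, Fads2 in 12 and Sqle in 8. The number of members called was 4 without stressed male 3, and 7 without female control 1 or female control 3. The share of all genes called in these leave-one-out fits was not recorded, so these numbers cannot be set against a background. With the striatal score held the number was also 7, beside 5.32% of all genes. There Scd2 kept a slope of 0.58 (SE 0.076; edgeR adjusted p = 1.67e-05).

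The astrocyte score picked out nearly the same members. On it 11 of 32 had a positive and 0 a negative slope at an adjusted p under 0.05, beside 8.84% and 8.03% of all genes. 10 members were called on both scores, 90.9% of either list, and Nsdhl took the place of Stard4. The smallest p belonged to Scd1 (2.27, SE 0.31; edgeR adjusted p = 4.13e-05), Fads2 (1.59, SE 0.23; edgeR adjusted p = 9.62e-05) and Scd2 (1.52, SE 0.29; edgeR adjusted p = 0.000926). Without stressed male 3 the number called was 4 here too, again without a recorded share of all genes. On the negative side Tm7sf2 had -1.005 (SE 0.48; edgeR adjusted p = 0.154), Scap -0.38 (SE 0.29; edgeR adjusted p = 0.405) and Insig2 -0.26 (SE 0.31; edgeR adjusted p = 0.619).

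With the myelin, astrocyte and neuron scores in 1 fit, 0 members were called on myelin, beside 0.425% of all genes, and 1 on astrocyte genes, beside 1.86%. That 1 was Fads2, with a slope of 1.78 on the astrocyte score (SE 0.38; edgeR adjusted p = 0.0154). Scd2 had a slope on myelin of 0.37 (SE 0.12; edgeR adjusted p = 0.272) and Insig1 of 0.53 (SE 0.19; edgeR adjusted p = 0.432) in this fit.

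Neighbouring pathways were read from lists of the same kind. Of 5 enzymes listed for the lipids of myelin 4 rose with the myelin score. Fa2h, the fatty acid 2-hydroxylase, was at 1.09 (SE 0.10; edgeR adjusted p = 2.14e-07). Ugt8a, which makes galactosylceramide, was at 0.93 (SE 0.097; edgeR adjusted p = 9.67e-07), and Cers2 and Gal3st1 were at 0.48 and 0.64. The other, Sptlc2, was at 0.081 (SE 0.097; edgeR adjusted p = 0.627). Of 20 other fatty acid genes 5 rose and 0 fell: Elovl7 (0.87, SE 0.15; edgeR adjusted p = 0.000444), Hsd17b12, Me1, Acsl1 and Tecr. Of 19 genes of sterol turnover and sensing, 2 rose, Npc1 (0.43) and Erlin2 (0.29), and 1 fell, Erlin1 (-0.43, SE 0.13; edgeR adjusted p = 0.0283). Of 10 genes of the isoprenoid branch 1 rose, Fnta, a prenyltransferase subunit, at 0.33 (SE 0.099; edgeR adjusted p = 0.0298). The shares of these last 2 lists were near the 7.09% of all genes called positive and 5.17% called negative. On the astrocyte score the same 4 of 5 myelin lipid enzymes rose, and 6 of the 20 other fatty acid genes. Of the sterol turnover genes 2 rose and 1 fell there, and 1 isoprenoid gene rose. The shares of all genes on that score were 8.84% positive and 8.03% negative.

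In the group comparisons no gene of these lists was called. The smallest p of each in the male and female control comparison belonged to Soat1, which esterifies cholesterol (0.27, SE 0.081; edgeR adjusted p = 0.119), Ggps1, which makes geranylgeranyl diphosphate (0.18, SE 0.053; edgeR adjusted p = 0.105), and Elovl4 (0.18, SE 0.057; edgeR adjusted p = 0.131). Cyp46a1, the neuronal enzyme that turns over cholesterol, was at -0.26 (SE 0.081; edgeR adjusted p = 0.122). With stress in males they belonged to Mylip (-0.20, SE 0.074; edgeR adjusted p = 0.191), Pdss1 (-0.17, SE 0.13; edgeR adjusted p = 0.564) and Hacd2 (-0.11, SE 0.052; edgeR adjusted p = 0.331). With stress in females they belonged to Erlin1 (0.23, SE 0.088; edgeR adjusted p = 0.608), Fntb (0.15, SE 0.068; edgeR adjusted p = 0.649) and Hsd17b12 (-0.22, SE 0.083; edgeR adjusted p = 0.597).

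The members did not move as 1 block. The median r between pairs of members within groups was 0.157, beside -0.0036 between pairs of all genes and 0.886 between pairs of the 14 myelin genes. It was 0.35 inside the squalene-to-cholesterol genes, 0.394 inside the fatty acid genes, 0.108 inside the mevalonate genes and -0.018 inside the sensing and transport genes. The closest pairs were Scd1 with Scd2 (0.928), Insig1 with Scd2 (0.834) and Hmgcs1 with Cyp51 (0.824). The most opposed were Lss and Insig2 (-0.637). Of the windows of 50 bases in Scd2, 2.66% also occur in Scd1.

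Promoters are shown for 4 of the 6 members that rose with the myelin score and had a promoter entry, in 3 roles. These 4 are the ones that held CCAAT or its reverse complement. The others, Elovl6 and Fads2, held neither and are not shown. The sequences printed are from RefSeq on GRCm38.p6, from 250 bases before to 50 after a gene's start. They are written 5′ to 3′ on the gene's strand. Capitals mark CCAAT or its reverse complement ATTGG, the box bound by the factor NF-Y, and, in Hmgcs1, a match to TCACNCCAC, a form of the sterol regulatory element that SREBP binds.
Hmgcs1, chr13:119690101-119690400, + strand: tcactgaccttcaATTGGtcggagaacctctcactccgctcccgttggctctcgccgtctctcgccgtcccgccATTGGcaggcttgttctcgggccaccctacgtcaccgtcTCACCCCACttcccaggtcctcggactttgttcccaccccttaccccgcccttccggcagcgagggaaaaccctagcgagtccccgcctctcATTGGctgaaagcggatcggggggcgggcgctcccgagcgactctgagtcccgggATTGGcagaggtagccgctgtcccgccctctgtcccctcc
Cyp51, chr5:4104648-4104947, - strand: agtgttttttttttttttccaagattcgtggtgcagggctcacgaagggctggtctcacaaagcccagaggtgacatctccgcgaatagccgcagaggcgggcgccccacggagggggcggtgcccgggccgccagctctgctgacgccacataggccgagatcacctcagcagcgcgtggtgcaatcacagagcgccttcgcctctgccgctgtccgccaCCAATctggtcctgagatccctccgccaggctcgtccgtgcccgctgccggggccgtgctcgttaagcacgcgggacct
Sc5d, chr9:42264251-42264550, - strand: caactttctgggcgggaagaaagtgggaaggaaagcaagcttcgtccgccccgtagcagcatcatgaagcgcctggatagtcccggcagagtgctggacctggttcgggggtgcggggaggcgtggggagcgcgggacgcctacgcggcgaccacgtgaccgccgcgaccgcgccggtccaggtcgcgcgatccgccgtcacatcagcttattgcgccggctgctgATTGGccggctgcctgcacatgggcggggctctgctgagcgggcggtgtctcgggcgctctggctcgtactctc
Insig1, chr5:28071162-28071461, + strand: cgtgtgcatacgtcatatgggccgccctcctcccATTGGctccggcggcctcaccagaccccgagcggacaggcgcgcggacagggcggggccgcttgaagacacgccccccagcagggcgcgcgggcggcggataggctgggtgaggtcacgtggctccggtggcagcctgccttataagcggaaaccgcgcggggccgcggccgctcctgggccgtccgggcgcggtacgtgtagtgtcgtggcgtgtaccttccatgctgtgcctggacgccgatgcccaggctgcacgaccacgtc
The genes they belong to are annotated in GENCODE M21 on the same build, Hmgcs1 at chr13:119690379-119708260, Cyp51 at chr5:4081145-4104746, Sc5d at chr9:42251595-42264256 and Insig1 at chr5:28071363-28078662.

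Hmgcs1 held 4 CCAAT boxes and the TCACNCCAC match, which began at base -137 counted from the start. Cyp51, Sc5d and Insig1 each held 1 CCAAT box. Promoters were found for 25 of the 32 members; Fdps, Fdft1, Sqle, Stard4, Fads1, Scd1 and Scd2 had no entry. With both strands searched, CCAAT occurred in 20 of the 25 (80.0%), beside 42.8% of 10338 genes of the count table with promoters of the same length. It occurred in all 9 squalene-to-cholesterol genes found and in 2 of 5 fatty acid genes. TCACNCCAC occurred in 1 of 25 (4.0%), beside 1.4%. GGGCGG, a box of the factor Sp1, occurred in 84.0%, beside 69.4%. CCAAT was present in 4 of the 6 members called on the myelin slope and in 16 of the 19 that were not. A match describes letters in this window and is not a measured binding site.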

How the data were processed

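RNA of the adBNST was sequenced from 20 libraries of a stranded mRNA kit, each a pool of 3 mice. The authors deposited whole-number counts per gene symbol without normalization. Per the submitters' processing notes, reads were aligned with STAR and counted with featureCounts on mm10; versions, annotation and strand setting are not given in the sources used here. Library totals ran from 2.71 M to 33.6 M counts, and shallow libraries are less precise.

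Counts were tested with edgeR 4.0.16 (R 4.3.3): TMM scaling, filterByExpr (all 12988 genes kept), a mean for each of 4 groups, quasi-likelihood tests without the robust option, two-sided, with Benjamini-Hochberg adjustment over all genes tested and a threshold of 0.05. The SE is the absolute log2 fold change divided by the square root of F. The test bounds p from below by a Poisson test, so a p can exceed the one its SE gives. Scores are mean log2 CPM (prior count 2). Slopes were fitted on a score beside the group means, leaving out the genes of that score. The fits were checked on simulated data. Gene models came from GENCODE M21 (GRCm38) and promoters from RefSeq.

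Alternatives were DESeq2 1.42.0 and its size factors, limma-voom (limma 3.58.1), the robust option, no filter or a mean of at least 10 CPM, a replicate block, myelin, astrocyte or striatal scores or log10 library total as covariates, prior counts of 0.5 and 5, and leaving out each library. The members and gene lists were chosen with earlier results of these data known. In each comparison Hmgcs1, Sqle, Cyp51, Insig1, Srebf2, Fasn and Scd2 are given whatever their values, with the 3 members of smallest p. For slopes the 3 smallest p in each direction are given, and for other lists the called genes or the one of smallest p.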

Additional observations from a re-analysis of the deposited data

Results flagged for a closer look

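In 4 of 132 groups of 5 libraries tested over the 32 members and their score, 1 library stood apart from the other 4, where the gap to its neighbour as a share of the group's range passed 0.71. Chance alone marks about 1 group in 20. Hmgcs1 was lowest in stressed male 3 (gap share 0.854), at 169.9 CPM beside 205 to 212 CPM in the other stressed males. Hsd17b7 was highest in stressed female 4 (0.792). Srebf2 was lowest in stressed male 5 (0.712), at 198 CPM beside 231 to 246 CPM, and Scap was lowest in male control 3 (0.753).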

How the results depend on the processing

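In the 6 group comparisons the number of called members stayed at 0 in every alternative run, except that sex in controls gave 6 with the myelin score held and 6 with the astrocyte score held; for the former, limma-voom gave 1 and leaving out single libraries 0 to 6. Members called positive on the myelin slope numbered 7 with the striatal score held and 4 to 12 over leave-one-out fits, and those on the astrocyte slope 4 to 12. Among the alternatives, the share of all genes called was recorded only in edgeR fits over all libraries with a score held. These were sex in controls (myelin, astrocyte or striatal score) and the myelin slope (striatal score). For all other alternatives, leave-one-out fits among them, it was not recorded.

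Signs of uncalled differences turned where a marker score was held. With myelin held, stress in females gave Hmgcs1 0.064, Insig1 0.058 and Scd2 0.035, sex in controls Scd2 0.060, sex in stressed mice Insig1 -0.013, the interaction Scd2 -0.016, and averaged stress Hmgcs1 0.010, Cyp51 0.015 and Scd2 0.027. With astrocytes held, stress in females gave Hmgcs1 0.011 and sex in controls Scd2 0.032. With the striatal score held, stress in males gave Sqle 0.044, Hmgcs1 0.053, Cyp51 0.033, Insig1 0.012 and a member median of 0.036; sex in controls gave Insig1 -0.061, Fasn 0.037 and a median of -0.012; sex in stressed mice gave Fasn -0.00226; the interaction gave Hmgcs1 0.075, Insig1 0.072, Fasn -0.039 and a median of 0.043; averaged stress gave Hmgcs1 0.015, Sqle 0.050, Cyp51 0.035 and Scd2 0.0047. The slope of Scap on myelin was then 0.026. For sex in stressed mice, Fasn was -0.000793 by DESeq2 and -0.0040 with a mean of at least 10 CPM, and Insig1 -0.015 by limma-voom and -0.0015 with that filter. The cause of these changes was not tested, also where a score was held.

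Leaving out single libraries gave these ranges. Stress in females: Hmgcs1 -0.065 to 0.013, Sqle -0.019 to 0.11, Cyp51 -0.026 to 0.085. Stress in males: Hmgcs1 -0.068 to 0.0087, Scd2 -0.026 to 0.073. Sex in controls: Insig1 -0.034 to 0.10, Fasn -0.053 to 0.0083. Sex in stressed mice: Sqle -0.011 to 0.11, Insig1 -0.028 to 0.053, Srebf2 -0.019 to 0.060, Fasn -0.030 to 0.034. Interaction: Hmgcs1 -0.060 to 0.037, Insig1 -0.098 to 0.040, Fasn -0.012 to 0.057, median -0.036 to 0.021.

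Same-numbered libraries of different groups did not deviate together: of 30 pairs, 5 had an r over 0.1, and the range was -0.473 to 0.237. With the number as a replicate block, 0 members were called in each group comparison and 10 on the myelin slope. The share of all genes called in the block fits was not recorded. In simulated data over 12988 genes, a log2 fold change of 0.5 with stress in males was called for 83 of 100 genes. The members lay between -0.16 and 0.14 in that comparison, and such sizes were not simulated. The 0 calls with stress therefore do not show that the members did not change. A myelin slope of 0.4 was called for 9 of 100 genes and one of 0.8 for 67. An uncalled slope thus does not show that a member did not follow the score.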

Other observations

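The genes whose levels followed the score of the 32 members most closely within groups were Rassf2 (r = 0.933), Ankrd34c (0.929), Olfm1 (0.926), Sparcl1 (0.922), Phyhipl (0.921), Frem3 (0.915), Sparc (0.915), Oxr1 (0.914), Ywhah (0.912) and Nkain1 (0.911), over 20 libraries. None of these 10 belongs to any of the gene lists used. They were picked as the largest r among genes outside the members, and the spread of r over all genes was not recorded. The most opposed genes, Nin and Celf1, each had an r of -0.896.

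The member score also followed other lists within groups. Its r was 0.885 with 20 other fatty acid genes and 0.851 with 5 enzymes of myelin lipids, and 0.0498 with 10 genes of the isoprenoid branch. With 19 genes of sterol turnover and sensing it was -0.332, and -0.122 without stressed females 5 and 2, the libraries farthest from the median. Microglial genes gave 0.413 and endothelial genes 0.139.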
